A study of Mus musculus with 12 samples.

Results

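Macrophages take up cholesterol with lipoproteins and either store it as droplets of cholesterol ester or export it, and 10 mouse genes of this balance are described here in macrophages with and without Baf60a. The genes were chosen by symbol, through the GENCODE M21 annotation, for their roles in cholesterol efflux (Abca1, Abcg1, Apoe), oxysterol sensing (Nr1h2, Nr1h3), oxysterol synthesis (Ch25h), control of lipoprotein uptake (Mylip) and the ester cycle (Soat1, Soat2, Nceh1). Of these 10, 9 were matched among the 23438 genes of the table. Apoe, which encodes an apolipoprotein that accepts cholesterol, was not analysed here.

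RNA of bone marrow derived macrophages (BMDMs), cells grown from mouse marrow and collected on day 7 of differentiation, was sequenced in 5 libraries labelled Baf60a KO and 7 labelled WT, 12 in all. The marrow came from C57 mice described as atherosclerotic. Baf60a is the protein of Smarcd1, a subunit of the SWI/SNF complex that moves nucleosomes. The labels used here do not give the knockout allele, its cell type, the model of atherosclerosis, or the age and sex of the mice, and they do not say whether libraries came from separate mice. A p-value given here thus weighs a difference against the library-to-library spread, whose source (mouse, culture or handling) is not known.

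Liver X receptors (LXRs) are nuclear receptors that bind DNA as a partner of RXR and are switched on by oxysterols, oxidised forms of cholesterol that build up when a cell holds too much of it. Active LXRs raise transcription of the exporters Abca1 and Abcg1, and of Mylip, which lowers cholesterol uptake. In the ester cycle, Soat1 and Soat2 join cholesterol to fatty acids for storage, and hydrolases such as Nceh1 release it again. A macrophage that stores more ester than it exports becomes a foam cell, the typical cell of atherosclerotic plaques.

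Levels are TPM, transcripts of a gene as a share of all transcripts in the library, corrected for transcript length, so genes can be compared with each other. TPM keeps no depth, so how many reads a value rests on is unknown. Smarcd1 was at 6.90 ± 0.579 TPM in KO libraries (SD, n = 5) and 13.6 ± 1.40 TPM in WT libraries (SD, n = 7), with no overlap. WT replicates 2, 3 and 4 stand apart from the other 9 libraries across the transcriptome, so each comparison was made with all 12 libraries and with the 9 left without them. Summed TPM of 8 macrophage markers, each above 1 TPM in every library, was 8888 to 9441 in KO, 2397 to 4737 in WT replicates 2, 3 and 4, and 9044 to 10988 in the other WT libraries. Of these markers C1qa, C1qb, Csf1r and Fcgr1 lay below the other 9 libraries in WT replicates 2, 3 and 4, and Cd68, Adgre1, Itgam and Mertk overlapped them. C1qa averaged 269 TPM and Cd68 1457 TPM in these 3 libraries, where the other WT libraries averaged 2708 and 1424 TPM. Summed TPM of 9 fibroblast and smooth muscle markers was 190 to 605 in KO, 3906 to 9799 in WT replicates 2, 3 and 4, and 113 to 425 in the other WT libraries. The highest in WT replicates 2, 3 and 4 were Acta2 and Tagln, at means of 2629 and 2393 TPM. Col1a1, Col1a2, Col3a1, Pdgfrb and Myh11 also lay above the other 9 libraries there. Dcn overlapped the other libraries, and Lum was at most 0.12 TPM in any library. For 8 neutrophil markers the sums were 1003 to 6253 TPM in KO, with KO replicates 1 and 4 highest, 79.1 to 108 TPM in WT replicates 2, 3 and 4, and 1192 to 1545 TPM in the other WT libraries. Markers of T, B and NK cells summed to at most 1.01 TPM in any library. In bulk RNA, fewer cells of a type and less RNA per cell cannot be told apart. The part of other cell types in the results below was not tested.

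With all 12 libraries, 0 of the 9 members passed the threshold, a limma p-value adjusted over all 11152 genes tested of under 0.05. In that comparison 0.126% of all genes passed, 0.108% higher and 0.0179% lower in KO. At an unadjusted limma p under 0.05 there was 1 member, Nceh1, beside 1954 of the 11152 genes tested. With the 9 libraries, 3 of the 9 members passed, against 2.59% of the 10954 genes tested: Nceh1 rose, and Ch25h and Soat2 fell. The share of all genes called in each direction was 1.82% higher and 0.776% lower in KO. The 3 WT libraries were left out for their measured values, so p-values with 9 libraries hold only given that choice. All 9 members passed the filter on low values in both sets. The median log2 fold change of the members was 0.09 with 12 libraries and 0.04 with 9, beside 0.04 and 0.05 over all genes tested. Fold changes are KO minus WT on the log2(TPM + 1) scale with standard errors (SE) from limma, and they understate changes of genes at low levels.

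**Figure D1:**
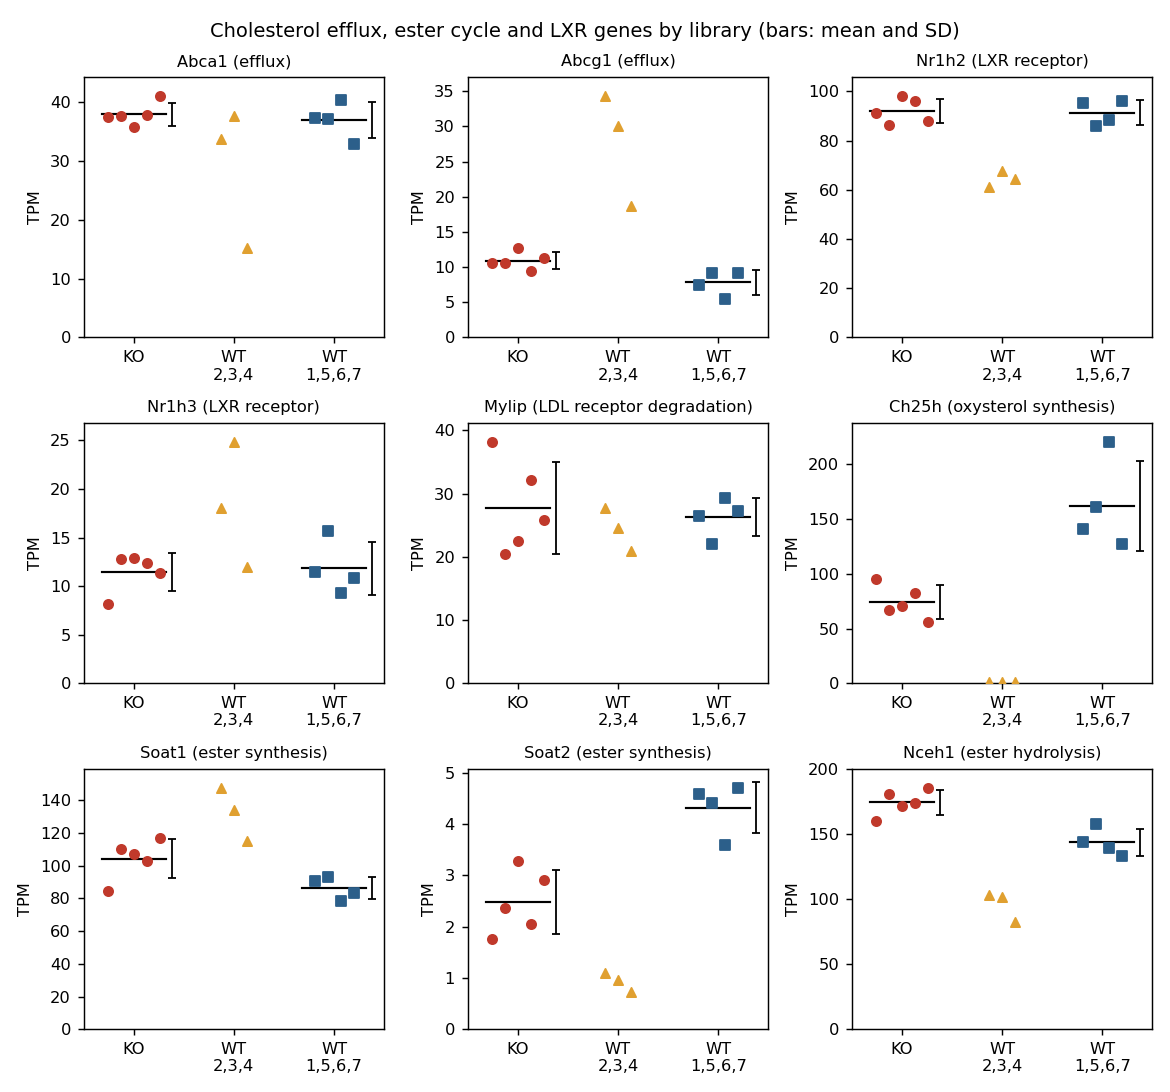
TPM of the 9 analysed genes (vertical axes, from 0) in each library, with circles for the 5 KO libraries, triangles for WT replicates 2, 3 and 4 and squares for WT replicates 1, 5, 6 and 7; bars give the mean and SD of the KO libraries and of the 4 WT libraries. Ch25h lies at 55.7 to 95.6 TPM in KO, 0.92 to 1.61 TPM in WT replicates 2, 3 and 4, and 127 to 220 TPM in the other WT libraries.

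The first 250 bases upstream of the RefSeq transcription start are shown for Abca1, as the LXR target that leads the efflux genes, and for Ch25h and Nceh1, as members called with 9 libraries that have a RefSeq promoter entry. Sequences are from RefSeq (GRCm38.p6, the mm10 assembly), written 5′ to 3′ on the strand of the gene, with matches to 6 searched motifs in capitals. The Abca1 window is chr4:53159896-53160145 (minus strand), the Ch25h window chr19:34475149-34475398 (minus strand) and the Nceh1 window chr3:27182754-27183003 (plus strand).
Abca1: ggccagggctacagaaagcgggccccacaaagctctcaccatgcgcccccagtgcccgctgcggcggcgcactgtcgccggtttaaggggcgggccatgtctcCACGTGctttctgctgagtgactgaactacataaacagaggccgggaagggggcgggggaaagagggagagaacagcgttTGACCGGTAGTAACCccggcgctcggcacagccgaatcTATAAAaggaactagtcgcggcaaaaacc
Ch25h: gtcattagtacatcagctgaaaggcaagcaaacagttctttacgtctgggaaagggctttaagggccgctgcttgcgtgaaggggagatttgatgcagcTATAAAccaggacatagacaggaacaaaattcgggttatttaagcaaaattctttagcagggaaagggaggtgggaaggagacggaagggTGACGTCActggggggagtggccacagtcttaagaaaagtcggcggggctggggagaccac
Nceh1: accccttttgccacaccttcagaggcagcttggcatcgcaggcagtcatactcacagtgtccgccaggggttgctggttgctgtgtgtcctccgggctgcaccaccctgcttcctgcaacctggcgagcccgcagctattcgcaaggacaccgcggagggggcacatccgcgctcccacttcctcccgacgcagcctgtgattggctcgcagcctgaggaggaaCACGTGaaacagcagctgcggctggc

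The motifs were searched on both strands of all 32848 RefSeq promoter windows of this length, and were chosen after the sequences had been seen. In the Abca1 window the longest capital run lies from -67 to -53 before the start. It matches the searched form of the LXR element described at this promoter (GGTTA, any 4 bases, then CGGTCA, on the opposite strand). This form was in 0.0122% of windows. Its first part, GGTTA, is shorter than its second, so the share is that of a shortened pattern chosen with the sequence known. The same window holds the E-box CACGTG, present in 6.02% of windows, and the TATA box TATAAA, present in 12.4%. The Ch25h window holds the cAMP response element TGACGTCA from -61 to -54, present in 1.55% of windows, and a TATA box letter match from -151 to -146. In the Nceh1 window the E-box lies from -26 to -21 before the RefSeq start. The GENCODE span of Nceh1 starts at 27182965, inside this window, so by that annotation the E-box lies within the gene. The canonical LXR direct repeat, AGGTCA and AGGTCA with any 4 bases between, (0.0152% of windows) and the interferon element core, GAAA and GAAA with any 2 bases between, (2.98% of windows) were in none of the 8 windows of the 7 members with an entry (Abcg1 and Soat2 had none). No searched motifs overlapped in the windows shown. A match is a description of letters and not evidence of binding.

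Neither LXR gene passed the test between KO and WT in either set. Nr1h2 (ENSMUSG00000060601, chromosome 7, 44549616 to 44553951 in mm10), which encodes LXR beta, was the more abundant receptor. It stood at 91.4, 86.45, 98.0, 96.0 and 88.0 TPM in KO replicates 1 to 5, against 95.2, 85.7, 88.3 and 95.9 TPM in WT replicates 1, 5, 6 and 7. The ranges overlap almost fully, and the log2 fold change was 0.01 ± 0.051 (SE) with 9 libraries (limma adjusted p of 0.935) and 0.22 ± 0.121 with 12 (limma adjusted p of 0.32). Nr1h3 (ENSMUSG00000002108, chromosome 2, 91184061 to 91202834), which encodes LXR alpha, the form enriched in macrophages and liver, stood at 8.19, 12.8, 12.9, 12.3 and 11.4 TPM in KO, against 11.4, 15.7, 9.35 and 10.9 TPM in the same 4 WT libraries. KO replicate 1 was the lowest of the 9 libraries for Nr1h3 and the highest for neutrophil markers. KO replicate 4, the next highest for neutrophil markers, was at the KO median of Nr1h3 (12.3 TPM). A link between them was not tested. The log2 fold change of Nr1h3 was -0.03 ± 0.157 (SE) with 9 libraries (limma adjusted p of 0.94) and -0.27 ± 0.213 with 12 (limma adjusted p of 0.431). Nr1h2 exceeded Nr1h3 in every library, by 6.78 to 11.2 times in KO, 2.73 to 5.36 times in WT replicates 2, 3 and 4, and 5.47 to 9.44 times in the other WT libraries.

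Ch25h fell in KO against the 4 WT libraries. This gene (ENSMUSG00000050370, chromosome 19, 34473778 to 34475164) encodes cholesterol 25-hydroxylase, which makes an oxysterol that acts in LXR signalling, in the control of sterol synthesis and against viruses. Its levels were 95.6, 66.9, 70.3, 82.5 and 55.7 TPM in KO, against 141, 161, 220 and 127 TPM in WT replicates 1, 5, 6 and 7. All 5 KO libraries lay below all 4 of these WT libraries, and KO averaged 74.2 ± 15.3 TPM (SD, n = 5) against 162 ± 41.1 TPM (SD, n = 4), a ratio of means of 0.457. With 9 libraries the difference on the log2 scale was -1.11 ± 0.182 (SE) at a limma adjusted p of 0.0188. This call was lost without KO replicate 3 (limma adjusted p of 0.052) or without WT replicate 1 (0.0531), with log2 fold changes of -1.10 and -1.17. With all 12 libraries the sign turned, to 1.52 ± 1.37 (limma adjusted p of 0.481), and WT replicates 2, 3 and 4 held almost no Ch25h. Overlaps given here are of whole annotated gene spans, and exons were not compared. The antisense gene Gm26902 overlaps Ch25h over 357 bases. With the handling of strand not given, whether reads of these genes were told apart is not known. The same holds for Soat1 with Gm37648 on the opposite strand (2563 bases). On the same strand, Nr1h3 overlaps Gm13783 (6873 bases) and Nceh1 overlaps the pseudogene Gm37191 (388 bases), and how reads were shared between them is not known.

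The exporters did not pass the test in either set. Abca1 (ENSMUSG00000015243, chromosome 4, 53030787 to 53159895), which moves cholesterol and phospholipid onto lipid-poor apolipoprotein A-I, was at 37.35, 37.5, 35.7, 37.8 and 40.9 TPM in KO, against 37.2, 37.1, 40.2 and 32.9 TPM in WT replicates 1, 5, 6 and 7. The groups overlap, with means of 37.9 ± 1.91 TPM in KO (SD, n = 5) and 36.9 ± 3.01 TPM in WT (SD, n = 4). Abca1 differed by 0.04 ± 0.06 (log2, SE) with 9 libraries (limma adjusted p of 0.768) and 0.23 ± 0.199 with 12 (limma adjusted p of 0.466). Abcg1 (ENSMUSG00000024030, chromosome 17, 31057675 to 31117988), which passes cholesterol to mature high-density lipoprotein, was at 10.6, 10.7, 12.7, 9.45 and 11.3 TPM in KO, against 7.44, 9.22, 5.46 and 9.23 TPM in those WT libraries. All 5 KO values lay above all 4 WT values, by a narrow gap between 9.45 and 9.23 TPM. With 9 libraries the log2 difference was 0.45 ± 0.138 (SE). The limma adjusted p was 0.114, and it stayed above the threshold whichever library was left out (0.11 to 0.236). With 12 libraries it was -0.27 ± 0.404 (limma adjusted p of 0.672).

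Mylip (ENSMUSG00000038175, chromosome 13, 45389742 to 45412022), which encodes the ubiquitin ligase IDOL, which sends lipoprotein receptors for degradation, varied among the KO libraries more than among the WT libraries. It stood at 38.1, 20.4, 22.4, 32.1 and 25.8 TPM in KO, against 26.5, 22.1, 29.3 and 27.3 TPM in WT replicates 1, 5, 6 and 7. KO replicates 1 and 4, highest for Mylip, were also highest for neutrophil markers, at a summed 6253 and 4374 TPM. KO replicates 2 and 3, lowest of the KO libraries for Mylip, had neutrophil sums of 2104 and 1915 TPM. These sums exceed those of KO replicate 5 (1003 TPM) and of the 4 WT libraries (1192 to 1545 TPM). A link was not tested. For Mylip the log2 difference was 0.05 ± 0.169 (SE) with 9 libraries (limma adjusted p of 0.907) and 0.09 ± 0.146 with 12 (limma adjusted p of 0.68). Without KO replicates 1 and 4 the log2 difference was -0.19 with the remaining 7 libraries (limma adjusted p of 0.401).

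On the storage side, Soat1 and Soat2 had opposite signs with 9 libraries, and of these Soat2 passed the test. Soat1 (ENSMUSG00000026600, chromosome 1, 156424525 to 156474331), which encodes the cholesterol acyltransferase of macrophages, was at 84.6, 110, 107, 103 and 117 TPM in KO, against 90.8, 93.3, 78.3 and 83.5 TPM in WT replicates 1, 5, 6 and 7. KO replicate 1 lay inside the WT range, and the other 4 KO libraries lay above it. Its log2 difference was 0.26 ± 0.0906 (SE) with 9 libraries, short of the threshold (limma adjusted p of 0.154). Leaving out KO replicate 1, which lay inside the WT range and was richest in neutrophil markers, gave 0.34 (limma adjusted p of 0.0309). The other 8 of the 9 runs that left out a library were not called (limma adjusted p of up to 0.319). Log2 differences over the 9 runs were 0.22 to 0.34. Without KO replicates 1 and 4, a pair picked with the levels already known, the log2 difference was 0.36 (limma adjusted p of 0.0388). Of 18 alternatives, left-out runs among them, 2 were called. With 12 libraries the log2 difference was 0.0058 ± 0.16 (limma adjusted p of 0.984).

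Soat2 (ENSMUSG00000023045, chromosome 15, 102150526 to 102163469), the acyltransferase best known from intestine and liver, fell with 9 libraries. Its levels were 1.77, 2.37, 3.28, 2.05 and 2.92 TPM in KO, against 4.58, 4.41, 3.59 and 4.70 TPM in WT replicates 1, 5, 6 and 7. The groups do not overlap, at means of 2.48 ± 0.619 TPM in KO (SD, n = 5) and 4.32 ± 0.501 TPM in WT (SD, n = 4), and both are far below Soat1. The difference on the log2 scale was -0.63 ± 0.135 (SE) at a limma adjusted p of 0.0451. Leaving out any of KO replicates 1, 2 and 4 and WT replicates 1, 5 and 7 ended the call, with limma adjusted p-values over the left-out runs of 0.0319 to 0.135 and log2 fold changes of -0.71 to -0.55. The call was also lost without a filter on low values (limma adjusted p of 0.080), with submission number as a covariate (0.0816) and without KO replicates 1 and 4 together (0.0878). With 12 libraries the log2 fold change was 3.6e-04 ± 0.346 (limma adjusted p of 0.999).

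Nceh1 (ENSMUSG00000027698, chromosome 3, 27182965 to 27284608), which encodes a neutral cholesterol ester hydrolase of macrophages, was the only member whose KO libraries all lay above all 7 WT libraries. It stood at 161, 181, 172, 174 and 185 TPM in KO, against 144, 158, 139 and 134 TPM in WT replicates 1, 5, 6 and 7. The lowest KO library, replicate 1, was close to the highest WT library, replicate 5 (160.5 against 158.1 TPM). KO averaged 174.5 ± 9.49 TPM (SD, n = 5), against 144 ± 10.5 TPM (SD, n = 4). Nceh1 differed by 0.28 ± 0.0566 (log2, SE) with 9 libraries (limma adjusted p of 0.0382) and by 0.53 ± 0.145 with 12 (limma adjusted p of 0.198). The call with 9 libraries held in 2 of the 9 runs that left out a library, those without KO replicate 1 and without WT replicate 5, and was lost without any of the others (limma adjusted p of up to 0.11), with log2 fold changes of 0.25 to 0.33. It was also lost without a filter on low values (limma adjusted p of 0.0637), with median-ratio scaling (0.0847) and with submission number as a covariate (0.0682). Over all genes tested, 3.56% had KO and WT values without overlap with 12 libraries, and 9.2% with 9, where 4 of the 9 members did so (Abcg1 and Nceh1 higher, Ch25h and Soat2 lower in KO).

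**Figure D2:**
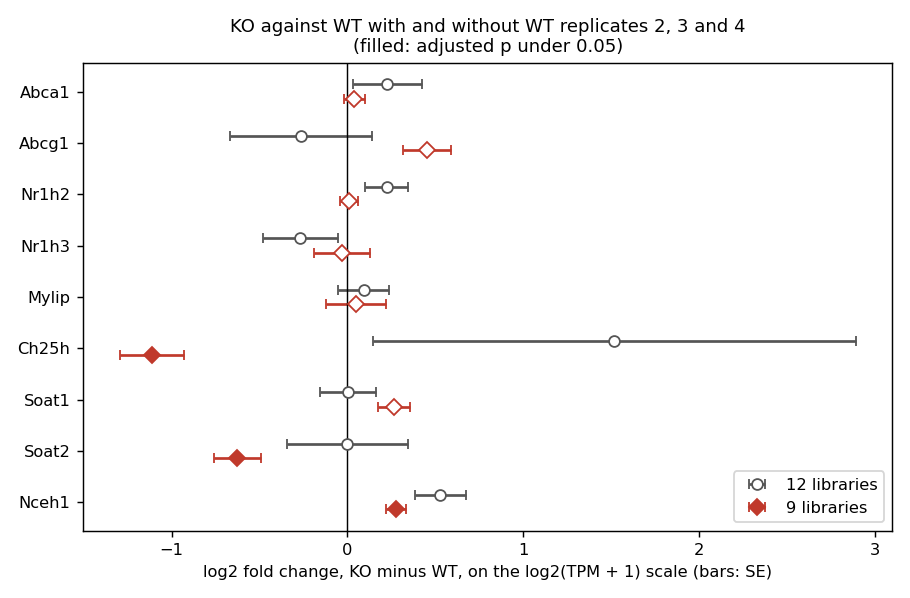
Log2 fold change of KO minus WT (horizontal axis, log2(TPM + 1) scale, bars are SE) for the 9 genes, with circles for all 12 libraries and diamonds for the 9 libraries without WT replicates 2, 3 and 4; filled symbols have a limma adjusted p under 0.05. Ch25h is at 1.52 with 12 libraries and -1.11 with 9, and Nceh1 is above 0 in both.

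Efflux was set against storage within each library as a TPM ratio, with no test, since the ratio joins chosen members. Abca1 over Soat1 was 0.441, 0.341, 0.332, 0.367 and 0.35 in KO replicates 1 to 5, against 0.41, 0.398, 0.514 and 0.394 in WT replicates 1, 5, 6 and 7. KO replicate 1 lay among the WT libraries and the other 4 KO libraries below them. Abcg1 over Soat1 overlapped, at 0.0917 to 0.126 in KO and 0.0697 to 0.111 in WT. The sum of both exporters over Soat1 was 0.437 to 0.567 in KO and 0.492 to 0.584 in the 4 WT libraries. Ester hydrolysis against synthesis, as Nceh1 over Soat1, overlapped as well, at 1.68 ± 0.126 in KO (SD, n = 5) and 1.67 ± 0.0883 in WT (SD, n = 4). Soat2 over Soat1 did not overlap, at 0.0199 to 0.0306 in KO and 0.0459 to 0.0563 in WT.

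**Figure D3:**
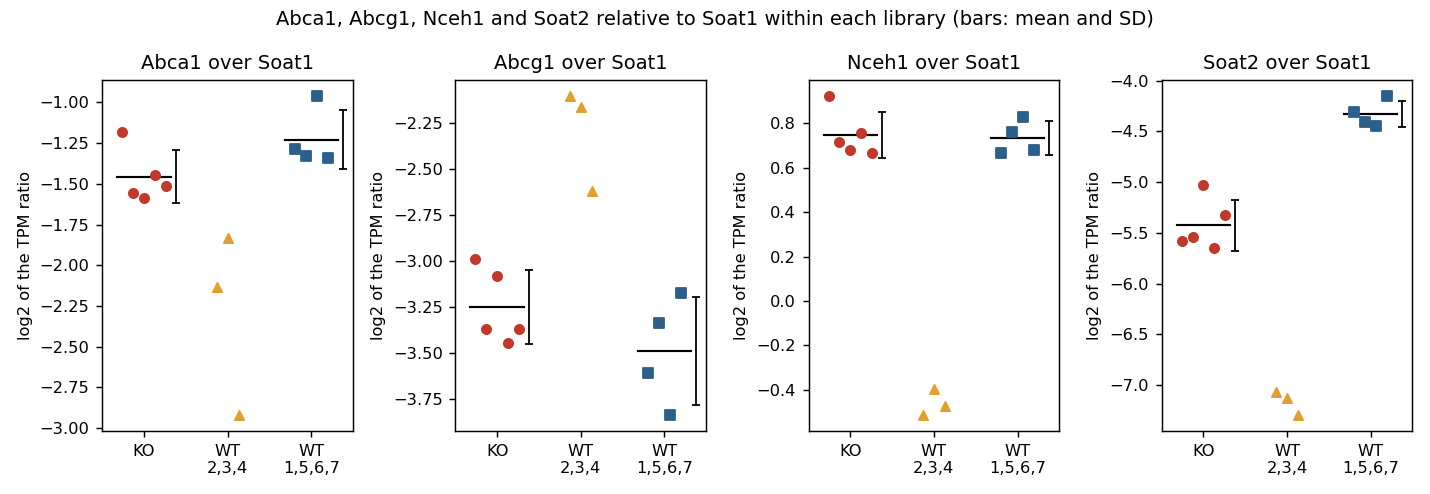
Log2 of the TPM ratio (vertical axes) of Abca1, Abcg1, Nceh1 and Soat2 to Soat1 within each library, with circles for KO, triangles for WT replicates 2, 3 and 4 and squares for WT replicates 1, 5, 6 and 7; bars give the mean and SD of the KO and the 4 WT libraries. For Nceh1 over Soat1, WT replicates 2, 3 and 4 lie between -0.52 and -0.40, and the other 9 libraries between 0.67 and 0.92.

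WT replicates 2, 3 and 4 were singled out from measured values, so their levels are a description with no test. In these libraries 1 of the 9 members, Abcg1, was above all other 9 libraries, and 4 (Ch25h, Nceh1, Nr1h2 and Soat2) were below them. Among all 11152 genes, 23.6% lay above and 25.5% below in this way, so such a gap was common over all genes. Counting only mean differences from the other WT libraries of at least 1 on the log2 scale, 1 member was above (Abcg1) and 2 were below (Ch25h and Soat2), against 8.95% and 4.46% of all genes.

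Ch25h showed the widest gap, at 0.92, 1.61 and 1.34 TPM in WT replicates 2, 3 and 4, where the other WT libraries held 127 to 220 TPM. Soat2 was at 1.10, 0.96 and 0.73 TPM there, and the other WT libraries held 3.59 to 4.70 TPM. Both genes were thus lower in these libraries than in any KO library. The exporters diverged from each other there: Abcg1 was at 34.3, 30.0 and 18.7 TPM (other WT, 5.46 to 9.23 TPM), while Abca1 was at 33.6, 37.6 and 15.2 TPM (other WT, 32.9 to 40.2 TPM). The TPM ratio of Abca1 to Abcg1 was 0.812 to 1.25 in WT replicates 2, 3 and 4, and 3.56 to 7.37 in the other WT libraries.

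Soat1 was at 147, 134 and 115 TPM in WT replicates 2, 3 and 4 (other WT, 78.3 to 93.3 TPM), and WT replicate 4 fell within the KO range. Nceh1 was lower there, at 103, 102 and 82.85 TPM (other WT, 134 to 158 TPM), and Nceh1 over Soat1 was 0.699 to 0.76 there and 1.59 to 1.78 in the other WT libraries. Abca1 over Soat1 was 0.132 to 0.28 in WT replicates 2, 3 and 4, below the other WT libraries at 0.394 to 0.514, and Abcg1 over Soat1 was 0.163 to 0.233, above the other WT libraries at 0.0697 to 0.111. Of the receptors, Nr1h2 was at 61.1, 67.75 and 64.2 TPM (other WT, 85.7 to 95.9 TPM), below the other libraries, and Nr1h3 at 18.0, 24.8 and 11.98 TPM (other WT, 9.35 to 15.7 TPM), where WT replicate 4 overlapped them. Mylip, at 27.8, 24.5 and 20.9 TPM, overlapped the other WT libraries at 22.1 to 29.3 TPM. These libraries also held the low neutrophil and high fibroblast and smooth muscle sums given above, and macrophage markers of which 4 of 8 were low and 4 overlapped the other libraries. The 7 listed markers of tissue macrophages went different ways in WT replicates 2, 3 and 4. Marco, a scavenger receptor, was at 1186 to 2043 TPM (other WT, 0.40 to 2.64 TPM). Fabp4 also lay above the other 9 libraries, at 119 to 223 TPM (other WT, 17.4 to 46.3 TPM). Chil3 lay below them, at 1.99 to 2.99 TPM (other WT, 99.8 to 135 TPM), as did Siglecf, and Vsig4 overlapped them. Car4 and Timd4 were under 1 TPM in every library.

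The order of levels differed between the sets of libraries. In KO it ran Nceh1 (mean 174.5 TPM), Soat1 (104), Nr1h2 (92.0), Ch25h (74.2), Abca1 (37.9), Mylip (27.8), Nr1h3 (11.5), Abcg1 (10.9) and Soat2 (2.48). Neighbours whose ranges overlapped in KO were Soat1 with Nr1h2, Nr1h2 with Ch25h, Abca1 with Mylip, and Nr1h3 with Abcg1. In WT replicates 1, 5, 6 and 7 Ch25h stood highest at 162 TPM, overlapping Nceh1 at 144 TPM, followed by Nr1h2 (91.3), Soat1 (86.5), Abca1 (36.9), Mylip (26.3), Nr1h3 (11.8), Abcg1 (7.84) and Soat2 (4.32). Nr1h2 and Soat1 overlapped there, while the ranges of Nr1h3 and Abcg1 did not meet (9.35 and 9.23 TPM at the nearest).

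Other genes of sterol handling were taken from 6 lists with 55 genes in the table, of which 39 passed the filter. With 12 libraries 0 of the 39 were called by limma, against 0.126% of all genes tested. At an unadjusted limma p under 0.05 there were 4 of the 39, beside 1954 of all 11152 genes. With 9 libraries 3 rose and 0 fell, against 1.82% higher and 0.776% lower among all genes tested. The median log2 fold change of the 39 was 0.013, beside 0.05 over all genes. The 3 that rose were all among the 11 tested of the other LXR target genes. The median log2 fold change of these 11 was 0.07, near the 0.05 over all genes. Of the 11, 8 were above 0 and 3 below, where 67.5% of all genes were above 0. Lpl, a lipase of triglyceride-rich lipoproteins, was at 736 to 1361 TPM in KO and 464 to 723 TPM in WT replicates 1, 5, 6 and 7, a log2 difference of 0.92 ± 0.19 (SE; limma adjusted p of 0.0401). Tgm2, a transglutaminase gene, was at 225 to 242 TPM in KO and 173 to 218 TPM in these WT libraries, a log2 difference of 0.33 ± 0.0653 (SE; limma adjusted p of 0.036). Scd2, which encodes a fatty acid desaturase, was at 10.3 to 11.4 TPM in KO and 6.35 to 8.94 TPM in these WT libraries, a log2 difference of 0.40 ± 0.0872 (SE; limma adjusted p of 0.0477), but at -0.56 with 12 libraries, where WT replicates 2, 3 and 4 held 38.8 to 43.5 TPM. Leaving out single libraries ended the call in 7 of 9 runs for Lpl and in 8 of 9 for Tgm2 and for Scd2, with limma adjusted p-values of up to 0.125, 0.11 and 0.113. The calls of Lpl, Tgm2 and Scd2 were also lost without a filter on low values (limma adjusted p of 0.0754, 0.0637 and 0.0836), with median-ratio scaling (0.053, 0.0767 and 0.068) and with the submission covariate (0.0655, 0.0585 and 0.0873). Without KO replicates 1 and 4 those of Tgm2 and Scd2 were lost (limma adjusted p of 0.10 and 0.13). With the 12 libraries Lpl was at 1.14 (limma adjusted p of 0.0865), and at 1.24 without WT replicate 6 (limma adjusted p of 0.0308).

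In the other 5 lists no gene was called in either set. Among 10 tested LXR partners and cofactors, the corepressor gene Ncor1 was at 84.8 TPM in KO and 88.6 TPM in the 4 WT libraries, and the coactivator gene Ncoa3 at 46.1 TPM in KO and 43.4 TPM in WT. Of 11 tested sterol transporters and acceptors, the lysosomal cholesterol exporters Npc2 and Npc1 were at 388 and 89.3 TPM in KO, against 385 and 86.8 TPM in the 4 WT libraries. Among 4 tested genes of oxysterol metabolism and sensing, Hsd3b7, an enzyme of oxysterol breakdown, was at 84.4 TPM in KO and 80.3 TPM in WT, and Gpr183, a receptor for oxysterols made from the product of Ch25h, was at 24.4 TPM in KO and 26.4 TPM in WT. The lysosomal ester hydrolase gene Lipa averaged 506 TPM in KO and in the 4 WT libraries alike, and the triglyceride lipase gene Pnpla2 44.5 TPM in KO and 43.8 TPM in WT. Lrp8, which encodes a lipoprotein receptor that IDOL marks for degradation, was at 23.3 ± 2.39 TPM in KO (SD, n = 5) and 29.3 ± 2.65 TPM in WT (SD, n = 4), a log2 difference of -0.32 ± 0.0819 (SE; limma adjusted p of 0.073). It passed with median-ratio scaling, at -0.37 (limma adjusted p of 0.0432), and without KO replicates 1 and 4, at -0.39 (limma adjusted p of 0.0497). The latter alternative was chosen after seeing the data. Lrp8 did not pass without WT replicate 1, at -0.28 (limma adjusted p of 0.185), or without KO replicate 4, at -0.38 (limma adjusted p of 0.0584). In WT replicates 2, 3 and 4 Gpr183 was at 2.15 to 4.38 TPM (other WT, 20.1 to 33.4 TPM). Of the 39 tested genes of all lists, Gpr183 among them, 15 lay below the other 9 libraries there and 6 above. Among all genes 25.5% lay below and 23.6% above.

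**Figure D4:**
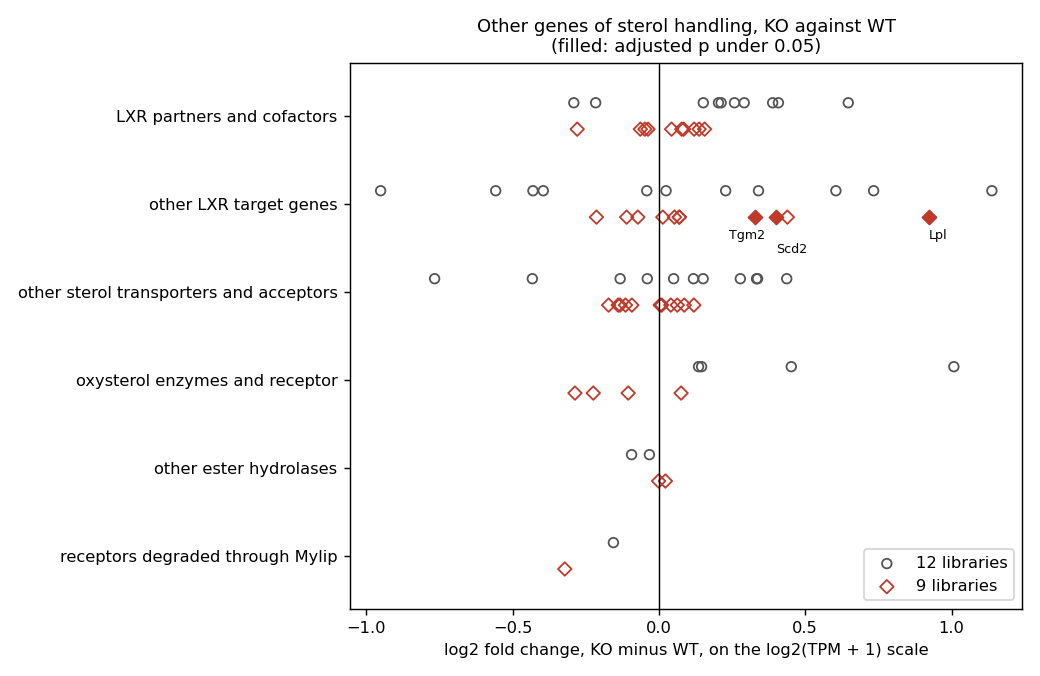
Log2 fold change of KO minus WT (horizontal axis, log2(TPM + 1) scale) for the tested genes of 6 lists of sterol handling, with circles for all 12 libraries and diamonds for the 9 without WT replicates 2, 3 and 4; filled symbols have a limma adjusted p under 0.05. The filled symbols are Lpl, Tgm2 and Scd2 with 9 libraries, at 0.92, 0.33 and 0.40.

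As a description with no test, the protein-coding genes whose log2(TPM + 1) was most like that of Abca1 over the 9 libraries, by Pearson's r among 10591 genes, were Psme4 (r 0.958, Spearman's rho 0.933), Cstf2t (r 0.94, rho 0.933) and Kdm7a (r 0.935, rho 0.75). For Soat1 they were Fbxl17 (r 0.982, rho 0.962), Prune1 (r 0.978, rho 0.967) and Myof (r 0.975, rho 0.967). The 9 libraries span both genotypes, and all genes share each library's scaling. The genes named are the highest of 10591 correlations over 9 libraries, and how high unrelated genes would reach was not tested.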

How the data were processed

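RNA of mouse BMDMs was made into NEBNext Ultra libraries and sequenced in 51-base read pairs, which the labels' protocols state. Salmon 1.2.0, bcl2fastq and mm10 appear in the submitters' processing notes. Which annotation was used, how transcripts were summed and whether strand was used is not given in the sources used here. TPM were what the authors deposited, for 23438 Ensembl genes, summing to 940127 to 947987 per library, with no depth. TPM is relative, so a rise of abundant transcripts lowers all others. GENCODE M21 gave symbols and coordinates for 23423 genes. Columns were matched to libraries by the sample name in the labels' descriptions, and no pair of libraries held identical values.

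KO was compared with WT by limma-trend (limma 3.58.1, R 4.3.3) on log2(TPM + 1), keeping genes at 1 TPM or more in 5 or more libraries of the set, with Benjamini-Hochberg adjustment over all genes tested and a threshold of 0.05. The fit was tested on simulated data. The members, lists and markers, and the leaving out of WT replicates 2, 3 and 4, were chosen with earlier results of these data known. Named list genes are up to 3 called per list and direction, or 2 with the highest levels where none was called. Alternatives were another pseudocount, filters, scaling, blocks and left-out libraries. Listed genes with no match were not analysed here, and some listed genes and markers are not reported here. Markers of basophils and mast cells, dendritic, endothelial, adipocyte, erythroid and tissue macrophage cells summed to at most 12.3, 45.25, 36.6, 0.27, 3.60 and 2243 TPM in any library, the last from Marco in WT replicates 2, 3 and 4.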

Additional observations from a re-analysis of the deposited data

Results flagged for a closer look

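Levels of the members and named genes were searched for a library far from the rest of its group. Abca1 at 15.2 TPM in WT replicate 4 lay far below the other 6 WT libraries, which stood at 32.9 TPM or higher. Npc2 was likewise lowest in WT replicate 4, at 307 TPM. Npc1 was highest in KO replicate 5, at 97.8 TPM. Among the 4 WT libraries left without replicates 2, 3 and 4, Scd2 was lowest in WT replicate 6 at 6.35 TPM. These are 4 of 66 groups searched, and chance marks about 1 in 20.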

How the results depend on the processing

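With 12 libraries the number of genes called was 14 (12 higher, 2 lower in KO), 4 with median-ratio scaling (2 higher, 2 lower), 3 with submission number (1 to 5 against 6 to 12, which no label names as a batch) as a covariate, 3 without KO replicates 1 and 4, 284 without WT replicates 2, 3 and 4, and 2 to 36 when single libraries were left out (36 without WT replicate 6, 21 without WT replicate 4 and 2 to 5 without any other). The 0 called members became 3 without WT replicates 2, 3 and 4 and stayed 0 under the other settings. With 9 libraries 284 genes were called (199 higher, 85 lower), 180 without a filter, 133 with the submission covariate and 55 to 464 with single libraries left out (55 without WT replicate 1, 72 without WT 7, 148 without WT 5, 464 without WT 6, and 120, 101 and 84 without KO 2, 3 and 4), and median-ratio scaling gave 88 higher and 140 lower. The 3 called members became 1 (Ch25h) without a filter or with the submission covariate, and 0 to 3 with single libraries left out. KO and WT share the replicate numbers 1 to 5, which no label calls pairs, and same-numbered libraries deviated with correlations of -0.23 to 0.27. The replicate block left 0 genes called in 10 libraries (3688 at an unadjusted p under 0.05), against 13 in these libraries without it. In the 4 libraries of the 9 that share a number, 0 genes and 0 members were called with the replicate block (895 genes at an unadjusted p under 0.05) and 0 without it.

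Signs turned with 12 libraries as follows (log2 fold changes). Without WT replicates 2, 3 and 4 they were Abcg1 0.45, Ch25h -1.11, Soat2 -0.63, Ncor1 -0.063, Gpr183 -0.10, Pnpla2 0.022 and Scd2 0.40. Median-ratio scaling gave Soat1 -0.041 and Soat2 -0.034, and the submission covariate gave Soat2 -0.011. The libraries with shared replicate numbers gave Soat1 -0.13 with and without the replicate block. Without KO replicates 1 and 4 they were Mylip -0.15 and Lipa 0.015. With single libraries left out, values spanned -0.026 to 0.19 for Mylip, -0.060 to 0.090 for Soat1, -0.16 to 0.12 for Soat2 and -0.087 to 0.0074 for Lipa. With 9 libraries, median-ratio scaling gave Abca1 -0.0067, Nr1h2 -0.036, Npc2 -0.043, Npc1 -0.0059 and Pnpla2 -0.024. The libraries with shared numbers gave Nr1h2 -0.011, Npc2 -0.034, Hsd3b7 -0.0080 and Pnpla2 -0.027 with and without the replicate block. Without KO replicates 1 and 4 they were Mylip -0.19, Nr1h2 -0.0079, Nr1h3 0.076, Lipa 0.046 and Ncoa3 -0.0025. With single libraries left out, values spanned -0.072 to 0.15 for Mylip, -0.13 to 0.10 for Nr1h3, -0.019 to 0.035 for Nr1h2, -0.013 to 0.081 for Abca1, -0.027 to 0.027 for Lipa, -0.032 to 0.063 for Npc2, -0.014 to 0.054 for Pnpla2 and -0.22 to 0.010 for Gpr183. Apart from the signs that turned without WT replicates 2, 3 and 4 for Ch25h, Soat2 and Scd2, none of these values passed the threshold. The cause of these changes was not tested. The alternatives without KO replicates 1 and 4 and with shared replicate numbers only were chosen after seeing the data, as was a filter taken over all 12 libraries, which gave 260 genes and 3 members with 9 libraries. TPM holds no depth, so the counting error of low genes such as Soat2 cannot be given.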
